A study of Mus musculus with 8 samples.

Results

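The genes described here are 37 markers of macrophages and monocytes, chosen by symbol for their roles in these cells, among 12393 genes measured on 8 Affymetrix arrays of mouse tissue. All 37 had a probe set with a single gene symbol, and each was read from its probe set with the highest mean over the 8 arrays, with no filter on low values. The arrays held total RNA of 6 primary soft tissue sarcomas and of 2 normal muscles. All mice were p53 Fl/Fl, with both copies of p53 flanked by sites that Cre recombinase cuts, and carried a conditional Braf allele, Ca, either on both chromosomes (Braf Ca/Ca; p53 Fl/Fl) or on 1 (Braf Ca/+; p53 Fl/Fl). Tumours were started by injecting an adenovirus that expresses Cre, so recombination was limited by where the virus went and not by a promoter of a named cell type. There were 4 Ca/Ca sarcomas, numbered 1, 2, 3 and 5, 2 Ca/+ sarcomas, numbered 1 and 2, and 1 muscle of each genotype, taken from a hind limb that bore no tumour. The labels give no age and do not state whether each array was made from its own animal. A p-value here therefore measures only how these samples vary, and part of that variation may be technical.

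Macrophages are phagocytes that live in every tissue and are joined, in injury and in tumours, by monocytes from the blood. The cytokine Csf1 keeps them alive through its receptor Csf1r, the chemokine receptor Ccr2 brings monocytes in, and the transcription factor PU.1, encoded by Spi1, sets their gene programme. They bind antibody-coated targets through Fc receptors, signal through adaptors with an ITAM motif, secrete the complement chains of C1q, take up debris through scavenger receptors and digest it in lysosomes. Resting skeletal muscle holds resident macrophages in the tissue between its fibres.

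Values are log2 expression levels, so a difference of 1 is 2-fold. Differences between groups were tested with limma, and adjusted p-values were taken over all 12393 genes with a threshold of 0.05. Array medians lay between 5.79 and 5.90. A list of 10 muscle fibre genes had a mean level of 13.12 in Ca/Ca muscle and 13.00 in Ca/+ muscle, against 7.08 to 9.41 in sarcomas, so both muscle arrays carried the markers of their label. Braf, the altered gene, was at 4.45 to 5.07 in sarcomas and at 4.50 and 4.62 in muscles. This level does not check the genotype, since no source used here says which part of the gene the probes cover. In whole tissue RNA, fewer cells of a type and less RNA per cell cannot be told apart.

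Among arrays, 2 stood apart for the 37 genes. Ca/Ca sarcoma 5 had the lowest sarcoma level of 31 of them, and the Ca/+ muscle lay below the Ca/Ca muscle for 36. The mean level of the 37 genes was 9.69, 9.87, 9.73 and 8.33 in Ca/Ca sarcomas 1, 2, 3 and 5, 9.09 and 9.81 in Ca/+ sarcomas 1 and 2, 9.34 in the Ca/Ca and 7.90 in the Ca/+ muscle. The Ca/Ca muscle thus lay within the range of the sarcomas, and only the Ca/+ muscle lay below it. For the 37 genes, the main results are given with and without these arrays. For the accompanying lists, fits without them are not given.

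**Figure D1:**
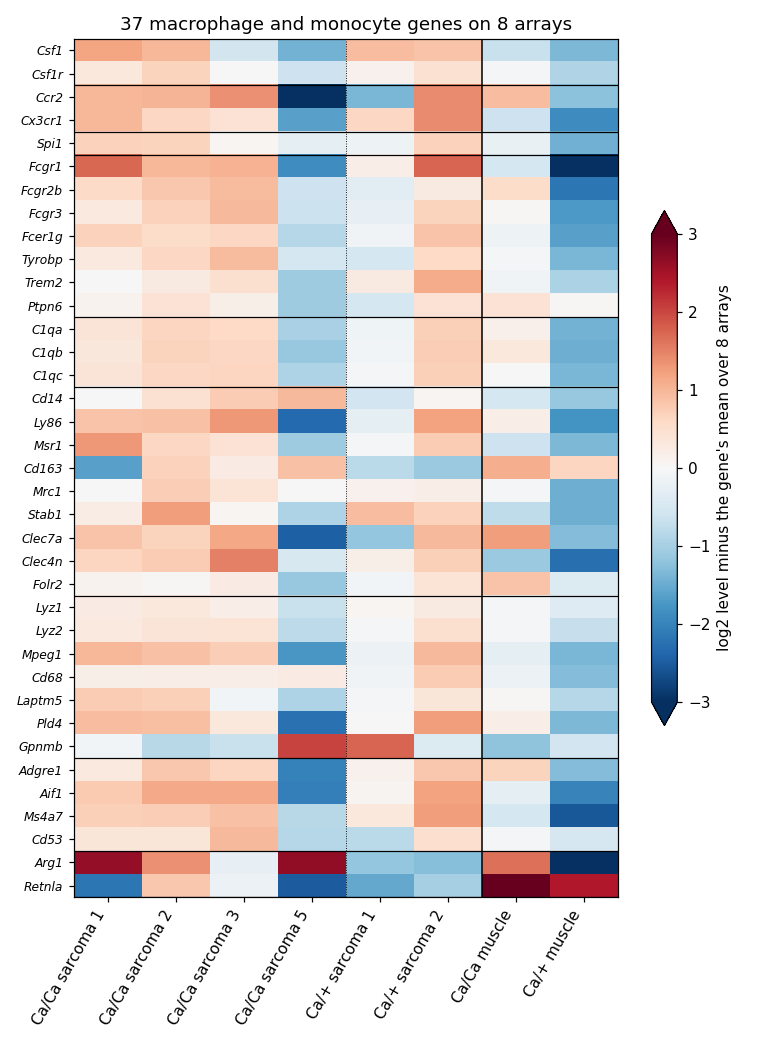
Level of each of the 37 genes (rows, grouped by role) on each of the 8 arrays (columns), as the log2 level minus the mean of that gene over the 8 arrays, with colours cut at -3 and 3. Ca/Ca sarcoma 5 is blue for most genes, with 6 of 37 above their mean, and the Ca/+ muscle has 3 of 37 above their mean against 15 in the Ca/Ca muscle.

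The series was designed to compare sarcoma with normal muscle. In that comparison Clec4n, Ms4a7 and Cd68 rose in sarcoma, Retnla fell, and the other 33 genes did not pass. The 4 called genes are 10.8% of the 37, against 26.3% of all genes called in either direction (limma, adjusted p under 0.05). By direction, 8.11% were higher and 2.7% lower, against 13.1% and 13.2% of all genes, so the share called was no greater than the background. The fitted difference was above 0 for 33 of the 37, with a median of 0.98 against 0.03 over all genes, and for 31 after cyclic loess or centring on housekeeping genes. Without adjustment, 11 of the 37 had p under 0.05 (29.7%, against 37.9% of all genes). All 6 sarcomas lay above both muscles for Mrc1, Clec4n and Cd68 and below both for Retnla, or 8.11% and 2.7% of the 37 against 20.0% and 19.0% of all genes.

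**Figure D2:**
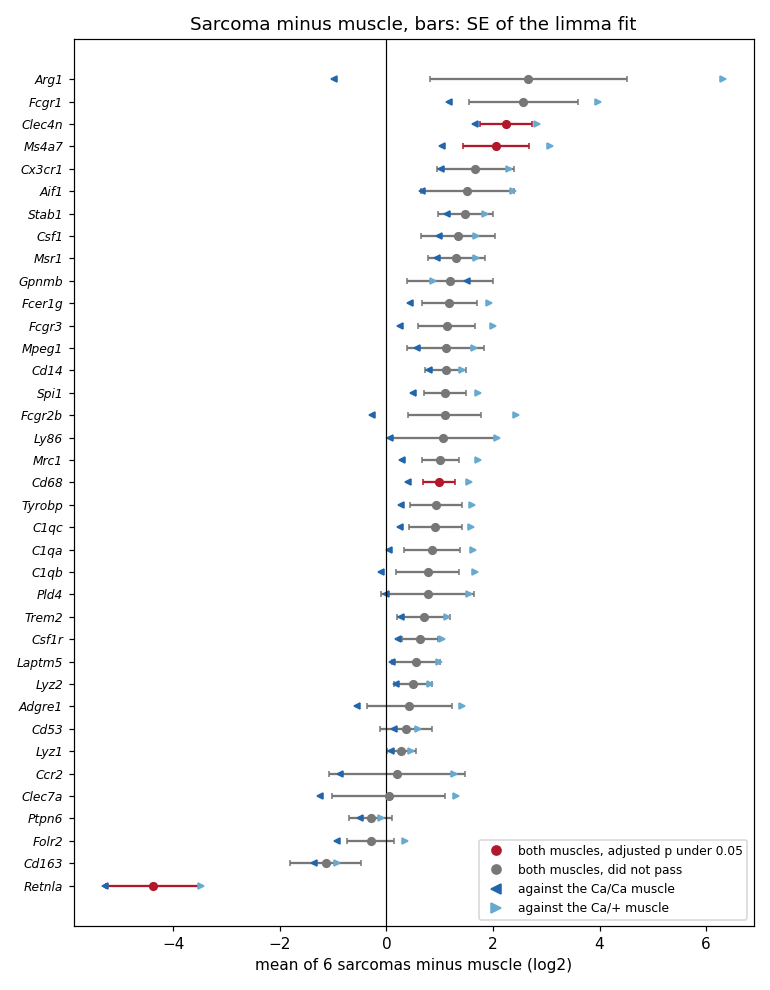
Mean of 6 sarcomas minus mean of 2 muscles for each gene (circles, log2), with bars of 1 standard error of the limma fit, and the same mean minus each muscle alone (triangles). Red circles mark the 4 genes past the threshold, and for every gene but Gpnmb the difference is smaller against the Ca/Ca muscle than against the Ca/+ muscle, or more negative.

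Which muscle served as the control changed these results. Taken against the Ca/Ca muscle alone, the sarcoma mean differed by a median of 0.25 over the 37 genes, and against the Ca/+ muscle alone by 1.60. Without the Ca/+ muscle, 0 genes passed as higher (limma, 3.0% of all genes), 1 at an unadjusted p under 0.05, and Retnla alone passed as lower (6.64% of all genes). Clec4n was then at a difference of 1.67 (adjusted p = 0.141), Ms4a7 at 1.03 (0.4015) and Cd68 at 0.42 (0.443). Without the Ca/Ca muscle, 8 genes passed as higher (21.6%, against 8.39% of all genes), namely Spi1, Fcgr2b, Fcgr3, Mrc1, Clec4n, Cd68, Ms4a7 and Arg1, and 0 as lower (limma, 10.4% of all genes), with Retnla at -3.49 (unadjusted p = 0.0157, adjusted p = 0.0703). Each of these fits has a lone muscle that is assumed to vary like the sarcomas.

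Leaving out Ca/Ca sarcoma 5 also changed the count. In that fit, 13 genes passed as higher (35.1%, against 14.3% of all genes), namely Csf1, Cx3cr1, Spi1, Fcgr1, Fcer1g, C1qc, Msr1, Stab1, Clec4n, Lyz2, Mpeg1, Aif1 and Ms4a7, and Retnla passed as lower. Cd68 did not (0.98, adjusted p = 0.0592). The other 5 sarcomas all lay above both muscles for 17 of the 37 genes (45.9%, against 22.7% of all genes). With Ca/Ca sarcoma 5 included, this held for 3 (8.11%, against 20.0%). That array was singled out by its low levels of these same 37 genes. A larger share of them without it follows from that choice and is no separate sign of a rise.

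Csf1, the growth factor on which macrophages depend, had levels of 10.16, 9.98, 8.42 and 7.57 in Ca/Ca sarcomas 1, 2, 3 and 5, 9.91 and 9.83 in the Ca/+ sarcomas, 8.32 in Ca/Ca muscle and 7.63 in Ca/+ muscle. On the probe set used, sarcomas were thus split, with 4 well above both muscles, Ca/Ca sarcoma 3 just above them and Ca/Ca sarcoma 5 below both. Sarcomas differed from muscle by 1.34 (SE 0.69, adjusted p = 0.199), which did not pass. The gene passed without Ca/Ca sarcoma 5 (1.69, adjusted p = 0.0305). Further Csf1 probe sets differed by 1.31, 0.57 and 0.13, none of which passed, and the mean of all by 0.84. On the last of these probe sets, Ca/Ca sarcoma 3 and Ca/+ sarcoma 2 (5.95 and 6.01) lay below the Ca/Ca muscle (6.13). Csf1r, the receptor for Csf1, was at 11.94, 12.31, 11.64 and 11.01 in the Ca/Ca sarcomas, 11.76 and 12.10 in the Ca/+ sarcomas, 11.58 in Ca/Ca muscle and 10.74 in Ca/+ muscle. Of the sarcomas, 5 were above both muscles and Ca/Ca sarcoma 5 lay between them, and the difference of 0.63 (SE 0.34, adjusted p = 0.222) did not pass.

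The chemokine receptors of monocytes varied between tumours. Ccr2, which guides monocytes out of the marrow and into inflamed tissue, was at 8.56, 8.59, 8.94 and 4.41 in Ca/Ca sarcomas 1, 2, 3 and 5, 6.19 and 8.99 in Ca/+ sarcomas 1 and 2, 8.49 in Ca/Ca muscle and 6.34 in Ca/+ muscle. Sarcomas lay on both sides of the muscles, Ca/Ca sarcoma 5 lowest, with the largest SD of the 37 genes over the 6 sarcomas (1.89). The difference was 0.20 (SE 1.27, adjusted p = 0.928), and it turned to -0.87 without the Ca/+ muscle and to -0.07 when arrays were centred on housekeeping genes. Cx3cr1, the fractalkine receptor of resident macrophages and patrolling monocytes, was at 8.74, 8.36, 8.17 and 6.11, then 8.36 and 9.16, against 7.12 and 5.85 in the Ca/Ca and Ca/+ muscle. All sarcomas but Ca/Ca sarcoma 5 were above both muscles. Its difference of 1.67 (SE 0.72, adjusted p = 0.13) did not pass, and without Ca/Ca sarcoma 5 it was 2.07 (0.00599).

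Spi1, which encodes PU.1, was at 8.74, 8.70, 8.10 and 7.75 in the Ca/Ca sarcomas, 7.90 and 8.73 in the Ca/+ sarcomas, 7.83 in Ca/Ca muscle and 6.60 in Ca/+ muscle. All 6 sarcomas were above the Ca/+ muscle, and 5 were above the Ca/Ca muscle. The difference of 1.10 (SE 0.39, adjusted p = 0.071) did not pass, and it passed without Ca/Ca sarcoma 5 (1.22, 0.0462) or without the Ca/Ca muscle (1.72, 0.0306).

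PU.1 binds DNA around a purine-rich core, here searched as GAGGAA on both strands in the 250 bases before the start of each RefSeq gene model (assembly GRCm38.p6). Of the 37 genes, 28 had an entry in that table, with 32 windows. The core was in 15 of these windows (46.9%), against 23.3% of all 32851 windows, and in 13 of the 28 genes, namely Aif1, C1qb, C1qc, Cd53, Cd68, Clec7a, Fcgr1, Fcgr3, Laptm5, Mrc1, Retnla, Stab1 and Trem2. The longer GAGGAAGT, which contains the core, was in the windows of C1qc and Retnla (6.25%, against 2.44% of all windows). Shown are 2 chains of C1q, whose levels ran together, and the called genes Cd68 and Retnla, which moved in opposite directions. The levels of C1qa, the other chain, ran with those of C1qb and C1qc, but C1qa is not among the 13 genes. Each sequence runs on the strand of its gene and ends at the base before the gene start, at chr4:136886201-136886450 (minus strand) for C1qb, chr4:136892915-136893164 (minus strand) for C1qc, chr11:69666171-69666420 (minus strand) for Cd68 and chr16:48842359-48842608 (plus strand) for Retnla. Capitals mark the core, which reads TTCCTC where it lies on the opposite strand.
C1qb: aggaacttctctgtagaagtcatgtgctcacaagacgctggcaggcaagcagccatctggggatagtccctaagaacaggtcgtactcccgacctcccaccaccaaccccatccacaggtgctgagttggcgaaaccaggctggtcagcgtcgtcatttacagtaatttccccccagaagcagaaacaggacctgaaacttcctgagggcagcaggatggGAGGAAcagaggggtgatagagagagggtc
C1qc: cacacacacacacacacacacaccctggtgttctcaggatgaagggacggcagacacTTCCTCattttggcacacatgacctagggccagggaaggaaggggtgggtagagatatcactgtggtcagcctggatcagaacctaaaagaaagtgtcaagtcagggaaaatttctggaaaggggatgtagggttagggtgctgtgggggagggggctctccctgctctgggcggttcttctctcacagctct
Cd68: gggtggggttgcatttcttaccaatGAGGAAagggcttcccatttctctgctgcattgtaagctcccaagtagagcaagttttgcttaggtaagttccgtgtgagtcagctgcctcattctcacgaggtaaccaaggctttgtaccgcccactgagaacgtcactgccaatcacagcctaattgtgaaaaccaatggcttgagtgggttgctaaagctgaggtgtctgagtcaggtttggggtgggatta
Retnla: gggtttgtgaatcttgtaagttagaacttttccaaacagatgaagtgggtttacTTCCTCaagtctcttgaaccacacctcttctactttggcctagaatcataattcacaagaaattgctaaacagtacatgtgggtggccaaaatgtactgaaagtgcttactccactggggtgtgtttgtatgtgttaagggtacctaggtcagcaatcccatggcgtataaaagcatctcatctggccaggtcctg
Counted from the gene start, the match began at position -30 in C1qb, -193 in C1qc, -225 in Cd68 and -196 in Retnla. Ms4a7, the called gene with no match in its windows, and Clec4n, which had no entry, are not shown. A match is a run of letters and does not say that PU.1 was bound there in these tissues.

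None of the 7 genes for Fc receptors, ITAM adaptors and their phosphatase passed in limma (1 at an unadjusted p under 0.05), with a median difference of 1.09. Fcgr1, the high-affinity receptor for IgG, had the largest difference of these and was at 9.28, 8.57, 8.61 and 5.70 in Ca/Ca sarcomas 1, 2, 3 and 5, 7.76 and 9.32 in Ca/+ sarcomas 1 and 2, 7.03 in Ca/Ca muscle and 4.24 in Ca/+ muscle. All but Ca/Ca sarcoma 5 were above both muscles. The difference of 2.57 (SE 1.02, adjusted p = 0.102) did not pass, and without Ca/Ca sarcoma 5 it was 3.08 (0.0164).

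The other Fc receptor genes had smaller differences. Fcgr2b, the inhibitory receptor for IgG, differed by 1.09 (SE 0.68) and Fcgr3, the low-affinity activating receptor, by 1.13 (SE 0.54), and all 6 sarcomas exceeded the Ca/+ muscle for both. Fcgr2b was at 10.70 in the Ca/Ca muscle, above 3 of the 6 sarcomas (9.54, 9.81 and 10.42), and its difference turned to -0.27 without the Ca/+ muscle. Fcer1g, the ITAM chain that pairs with Fc receptors, differed by 1.18 (SE 0.52) and passed without Ca/Ca sarcoma 5 (1.41, adjusted p = 0.0349). Tyrobp, the ITAM adaptor also called DAP12, differed by 0.93 (SE 0.49) and Trem2, a lipid-sensing receptor that signals through it, by 0.70 (SE 0.50). Ptpn6, the SHP-1 phosphatase that dampens these signals, differed by -0.30 (SE 0.40), and by 0.11 as the mean of its 2 probe sets.

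The 3 chains of C1q, which start the classical complement pathway, had near-equal profiles. C1qb was at 11.53, 11.87, 11.83 and 10.06 in the Ca/Ca sarcomas, 11.12 and 11.95 in the Ca/+ sarcomas, 11.51 in Ca/Ca muscle and 9.73 in Ca/+ muscle. C1qc was at 11.08, 11.31, 11.35 and 9.78, then 10.64 and 11.42, against 10.68 and 9.34. For both, Ca/Ca sarcoma 5 and Ca/+ sarcoma 1 lay between the muscles and the other 4 sarcomas lay above both. C1qa, C1qb and C1qc differed by 0.85 (SE 0.53), 0.77 (SE 0.59) and 0.92 (SE 0.49), with adjusted p of 0.285, 0.383 and 0.211. Against the Ca/Ca muscle alone the difference of C1qb was -0.12. The 3 genes are neighbours on chromosome 4 and are transcribed in the same cells, so they are not separate observations.

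Clec4n, which encodes dectin-2, a lectin that binds fungal sugars and signals through Fcer1g, was the only gene of the 9 scavenger, endocytic and pattern receptors to pass. It was at 9.58, 9.70, 10.44 and 8.45 in Ca/Ca sarcomas 1, 2, 3 and 5, 9.11 and 9.65 in Ca/+ sarcomas 1 and 2, 7.82 in Ca/Ca muscle and 6.67 in Ca/+ muscle. All 6 sarcomas were above both muscles, Ca/Ca sarcoma 5 the lowest of them. The rise of 2.24 (SE 0.49, 4.74-fold, adjusted p = 0.0112) was present in 6 of 6 sarcomas. Its other probe set gave 2.16 (SE 0.56, adjusted p = 0.0221 over all probe sets). It passed without each of the other arrays in turn (differences of up to 2.82) and did not without the Ca/+ muscle or with Ca/Ca arrays only (1.72, adjusted p = 0.256).

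Clec7a, which encodes dectin-1, a receptor for fungal glucan, had no such profile. Its levels were 8.40, 8.21, 8.69 and 5.09 in the Ca/Ca sarcomas, 6.38 and 8.50 in the Ca/+ sarcomas, 8.78 in Ca/Ca muscle and 6.23 in Ca/+ muscle. No sarcoma exceeded the Ca/Ca muscle, and Ca/Ca sarcoma 5 lay below both muscles. The difference of 0.04 (SE 1.06, adjusted p = 0.984) turned negative under 9 alternatives, reaching -1.23 without the Ca/+ muscle.

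Mrc1, the mannose receptor CD206 of tissue macrophages, was at 10.40, 11.14, 10.82 and 10.41 in the Ca/Ca sarcomas, 10.54 and 10.61 in the Ca/+ sarcomas, 10.36 in Ca/Ca muscle and 8.93 in Ca/+ muscle. All 6 sarcomas were above both muscles, but Ca/Ca sarcoma 1 by 0.04 only. The difference of 1.01 (SE 0.35, adjusted p = 0.0674) did not pass, and without the Ca/Ca muscle it was 1.72 (0.00712). Stab1, a scavenger receptor that clears altered proteins and dying cells, differed by 1.48 (SE 0.52, adjusted p = 0.0684), with Ca/Ca sarcoma 5 at 7.63 and the other sarcomas at 8.62 to 9.82, against 7.80 and 7.08 in muscle.

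Msr1, the class A scavenger receptor, gave different calls by probe set. The probe set used differed by 1.31 (SE 0.54, adjusted p = 0.114) and did not pass, whereas 3 further probe sets gave 2.98, 1.67 and 1.87 and passed (adjusted p = 0.0042, 0.0126 and 0.00683, each probe set tested separately). On each of those 3, all 6 sarcomas were above both muscles; for the most changed, they were at 7.13 to 9.54 against 5.68 and 5.38. On the probe set used, Ca/Ca sarcoma 5 (6.96) fell between the muscles (7.41 and 6.68).

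Cd14, the co-receptor for bacterial lipopolysaccharide, differed by 1.11 (SE 0.39, adjusted p = 0.0672), with sarcomas at 8.61 to 10.14 and muscles at 8.65 and 8.03, and unlike most of the genes it was highest in Ca/Ca sarcoma 5. It passed without Ca/+ sarcoma 1 (1.28, adjusted p = 0.0243). Ly86, the MD-1 partner of the receptor Cd180, differed by 1.07 (SE 0.97). For Cd163, the haemoglobin scavenger receptor, and Folr2, a folate receptor of resident macrophages, the fitted differences were -1.14 (SE 0.67, adjusted p = 0.253) and -0.30 (SE 0.44, 0.672). Cd163 was at 6.32, 7.13 and 6.83 in Ca/Ca sarcoma 1 and Ca/+ sarcomas 1 and 2 and at 8.19 to 8.83 in the other 3, against 9.02 and 8.58 in muscle. Folr2 was higher in the Ca/Ca muscle (9.28) than in any sarcoma (7.28 to 8.84), and its difference was 0.34 without that array.

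Cd68, a glycoprotein of the lysosomal membrane used to stain macrophages, was at 9.17, 9.19, 9.19 and 9.24 in Ca/Ca sarcomas 1, 2, 3 and 5, 8.88 and 9.74 in Ca/+ sarcomas 1 and 2, 8.82 in Ca/Ca muscle and 7.69 in Ca/+ muscle. All 6 sarcomas were above both muscles, and the lowest of them exceeded the Ca/Ca muscle by 0.06. The rise was 0.98 (SE 0.30, 1.97-fold, adjusted p = 0.0451), in 6 of 6 sarcomas. This call was near the threshold and was lost when any of Ca/Ca sarcomas 1, 2, 3 or 5, Ca/+ sarcoma 2 or the Ca/+ muscle was left out, and with cyclic loess (0.74, 0.109) or housekeeping centring (0.71, 0.112). It was also lost with repeated quantile normalization (adjusted p = 0.0517) and with genotype as a covariate (0.0646). Cd68 had the smallest SD of the 37 genes over the 6 sarcomas (0.28), and Ca/Ca sarcoma 5, low for most of them, matched the mean of the other 5 sarcomas (9.23).

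Of the other 6 lysosomal and antimicrobial genes none passed in limma, nor had any an unadjusted p under 0.05. Pld4, an endolysosomal nuclease, was at 8.96, 8.92, 8.34 and 5.79 in the Ca/Ca sarcomas, 8.02 and 9.28 in the Ca/+ sarcomas, 8.23 in Ca/Ca muscle and 6.68 in Ca/+ muscle, with 4 sarcomas above both muscles and Ca/Ca sarcoma 5 below both. Gpnmb, a membrane glycoprotein of lipid-laden macrophages, osteoclasts and pigment cells, was at 6.88, 6.12, 6.29 and 8.98, then 8.69 and 6.53, against 5.74 and 6.38. It was high in Ca/Ca sarcoma 5 and Ca/+ sarcoma 1, and its difference of 1.19 (SE 0.81, adjusted p = 0.331) did not pass.

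Lysozyme is made by the genes Lyz1 and Lyz2, which are near-identical copies. Lyz2 differed by 0.50 (SE 0.35), Lyz1 by 0.28 (SE 0.27), and the latter turned to -0.04 with cyclic loess. The Lyz1 value is uncertain, since its probe set is of a type that can bind several transcripts and a further Lyz1 probe set read 3.20 to 4.05 on the 8 arrays. Mpeg1, a pore-forming protein of phagocytes, differed by 1.11 (SE 0.72) and passed without Ca/Ca sarcoma 5 (1.51, adjusted p = 0.0237), and Laptm5, a lysosomal membrane protein of blood cells, differed by 0.55 (SE 0.45).

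Among 4 surface and cytoskeletal markers, Ms4a7, a tetraspan membrane protein of macrophages, rose. It was at 10.14, 10.16, 10.30 and 8.60 in Ca/Ca sarcomas 1, 2, 3 and 5, 9.74 and 10.68 in Ca/+ sarcomas 1 and 2, 8.90 in Ca/Ca muscle and 6.87 in Ca/+ muscle. All sarcomas except Ca/Ca sarcoma 5 were above both muscles. The rise of 2.05 (SE 0.62, 4.14-fold, adjusted p = 0.0408) did not pass when any of Ca/Ca sarcomas 1, 2 or 3, either Ca/+ sarcoma or the Ca/+ muscle was left out. Nor did it pass with cyclic loess (1.80, 0.0675) or housekeeping centring (1.78, 0.056), or with genotype as a covariate (2.01, 0.0621).

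Adgre1, which encodes a classical surface antigen of mouse macrophages, was at 8.62, 9.15, 8.97 and 6.30 in the Ca/Ca sarcomas, 8.46 and 9.15 in the Ca/+ sarcomas, 8.99 in Ca/Ca muscle and 7.02 in Ca/+ muscle. The 5 sarcomas other than Ca/Ca sarcoma 5 lay around the Ca/Ca muscle and above the Ca/+ muscle. The difference of 0.43 (SE 0.80, adjusted p = 0.737) turned to -0.55 without the Ca/+ muscle. Aif1, the actin-bundling protein IBA1, differed by 1.52 (SE 0.87, adjusted p = 0.244) and by 2.01 (0.0171) without Ca/Ca sarcoma 5. Cd53, a tetraspanin of leukocytes, differed by 0.37 (SE 0.49).

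**Figure D3:**
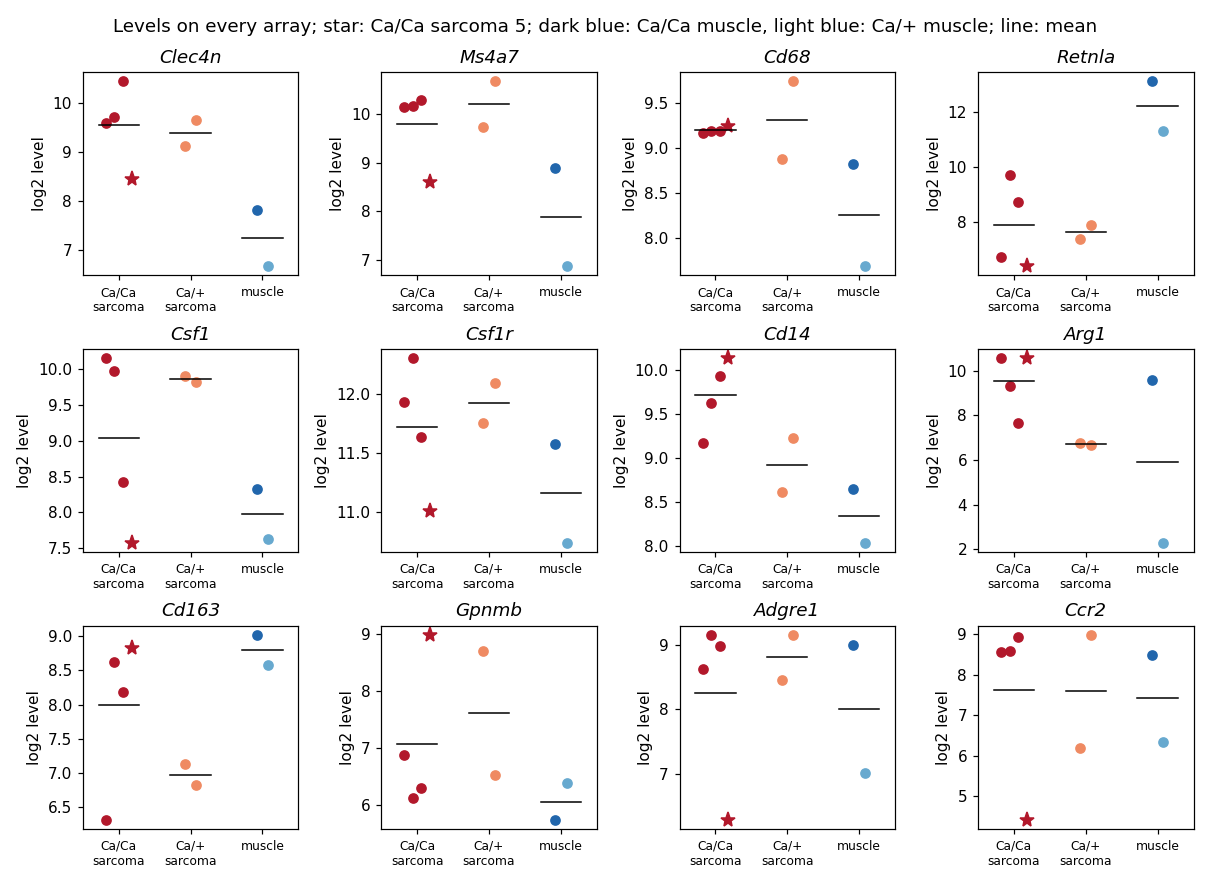
Log2 level on every array for 12 of the genes, by group, with a line at the group mean and the star marking Ca/Ca sarcoma 5. For Clec4n and Cd68 all sarcomas are above both muscles (dark blue Ca/Ca, light blue Ca/+), for Retnla all are below, and for Ccr2 and Adgre1 the star is at 4.41 and 6.30, below both muscles.

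The genes of alternative activation, the state that interleukin-4 induces in macrophages, did not move together. Retnla encodes RELM-alpha, a secreted protein of alternatively activated macrophages that adipose tissue also makes. It was at 6.74, 9.72, 8.73 and 6.42 in Ca/Ca sarcomas 1, 2, 3 and 5, 7.39 and 7.91 in Ca/+ sarcomas 1 and 2, 13.11 in Ca/Ca muscle and 11.31 in Ca/+ muscle. Every sarcoma was below both muscles, with a gap of 1.59 or more. The level fell by 4.39 (SE 0.87, 21.0-fold lower, adjusted p = 0.00754), in 6 of 6 sarcomas. It passed in every fit that left out 1 array other than the Ca/Ca muscle, and did not with Ca/Ca arrays only (-5.21, adjusted p = 0.111). The mean level of 4 measured fat cell genes, all of which fell (Retn, Cidec, Lep and Adipoq), was 4.11 to 6.41 in sarcomas against 8.91 and 10.80 in muscle, and its part in the Retnla result was not tested.

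Arg1, arginase of alternatively activated and tumour macrophages, was at 10.56, 9.30, 7.67 and 10.57 in the Ca/Ca sarcomas, 6.75 and 6.65 in the Ca/+ sarcomas, 9.58 in Ca/Ca muscle and 2.28 in Ca/+ muscle. Both genotypes' sarcomas lay above the Ca/+ muscle, whereas only 2 Ca/Ca sarcomas exceeded the Ca/Ca muscle. The 65 sensory receptor genes on the arrays, which these tissues are not known to use, had a median level of 2.66 and a 95th percentile of 4.10, so 2.28 lies at the floor and differences from it are lower bounds. The difference of 2.66 (SE 1.85, adjusted p = 0.341) did not pass, was 6.30 (0.0337) without the Ca/Ca muscle and turned to -0.99 without the Ca/+ muscle.

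Among the lists of accompanying genes, the median difference between sarcoma and muscle was 0.91 for the phagocyte oxidase and 0.78 for chemokines that draw monocytes. It was 0.71 for other macrophage genes, 0.23 for ITAM and CSF receptor signalling and -0.31 for transcription factors of macrophages, against 0.03 over all genes. The mean level of the oxidase genes was 8.07 in sarcomas, 7.89 in Ca/Ca muscle and 6.59 in Ca/+ muscle. That of the chemokines was 8.69, 8.48 and 7.0, and that of other macrophage genes 8.26, 7.84 and 7.21. Of 18 measured genes of ITAM and CSF receptor signalling, Dok1, an adaptor that restrains kinase signals, rose by 2.26 (SE 0.37, adjusted p = 0.0034), Csf2rb2, a chain of the interleukin-3 receptor, fell by 1.10 (SE 0.35, 0.0491) and 16 did not pass. Of 11 transcription factors of macrophages, Runx1 rose (1.70, SE 0.30) and 7 did not pass. Pparg fell by 3.16, Cebpa by 1.75 and Klf4 by 0.74. The share called higher was 5.56% of the signalling list and 9.09% of the transcription factors, against 13.1% of all genes. Of all genes, 13.2% were called lower. The Ca/Ca muscle minus the Ca/+ muscle was 1.17 for Dok1, 0.77 for Runx1 and -0.03 for Csf2rb2. It was -2.15 for Pparg, -1.54 for Cebpa and -0.57 for Klf4. Pparg and Cebpa are also the main factors of fat cells, whose 4 markers fell in the same comparison, and the part of that in their result was not tested.

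Of 35 other macrophage genes, 6 rose and 0 fell. The 6 are 17.1% of the list, near the 13.1% of all genes called higher. The 4 of smallest p were Mertk, a receptor for dying cells (1.30, SE 0.22, adjusted p = 0.00413), Lgals3, the lectin galectin-3 (1.58, SE 0.36, 0.0132), Pla2g7, a phospholipase (1.85, SE 0.51, 0.0283), and Axl, a kinase related to Mertk (1.45, SE 0.40, 0.0297). Only Mertk and Lgals3 passed under all scalings run. Pla2g7, Axl, Lgmn, a lysosomal protease, and Plin2, a coat protein of lipid droplets, did not pass with cyclic loess (1.58, 1.20, 1.04 and 0.49) or housekeeping centring (1.58, 1.19, 1.03 and 0.50), nor did Plin2 with array median centring (0.76). The Ca/Ca muscle was above the Ca/+ muscle by 1.79 for Pla2g7, 1.41 for Lgals3 and 1.31 for Lgmn. It was above by 1.3 for Axl and 0.52 for Mertk, and below for Plin2 (-0.59). Of 11 chemokines that draw monocytes, Ccl12, a ligand of Ccr2, rose by 2.59 (SE 0.66, adjusted p = 0.022) and 10 did not pass. That is 9.09% called higher, and Ccl12 was 1.43 higher in the Ca/Ca than in the Ca/+ muscle. None of 4 genes of the phagocyte oxidase passed in limma, with 1 at an unadjusted p under 0.05. Of 10 inflammatory genes Ptgs2, the inducible prostaglandin synthase, rose by 4.27 (SE 0.94, 0.0118), and of 12 further genes of alternative activation Ccl24, an eosinophil chemokine, fell by 1.47 (SE 0.44, 0.0408; not with cyclic loess). Of 16 genes shared by all leukocytes none passed, with a median of 0.18, and of lists for neutrophils (9 measured), mast cells (6), eosinophils (3), T and NK cells (11), B cells (7), dendritic cells with MHC class II (9) and osteoclasts (6) none passed either; at an unadjusted p under 0.05 these lists held 0 genes, except 1 neutrophil gene. Markers of tissue cells did move. All 10 muscle fibre genes fell (median -4.52), as did all 4 fat cell genes (median -4.68), 5 of 7 endothelial genes (median -1.30) and all 3 satellite cell genes (median -0.74), of which Pax7 did not pass after repeated quantile normalization (-0.61). Of 7 fibroblast genes Thy1, a surface glycoprotein, rose (1.73, SE 0.39, adjusted p = 0.0136) and 6 did not pass. Their part in the values of the macrophage genes was not tested.

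The sarcomas of the 2 genotypes were compared next. For Ca/Ca against Ca/+ sarcomas, 0 of the 37 genes passed (limma), as did 0.0% of all genes, and the median difference was -0.13. At an unadjusted p under 0.05 there were 2 genes (5.41%, against 7.84% of all genes), Arg1 and Cd14. Arg1 differed by 2.82 (SE 0.83, adjusted p = 0.618), and was the only gene of the 37 for which all 4 Ca/Ca sarcomas lay above both Ca/+ sarcomas (2.7%, against 9.68% of all genes). Cd14 differed by 0.80 (SE 0.31, adjusted p = 0.629), with Ca/Ca sarcoma 1 (9.17) below Ca/+ sarcoma 2 (9.23).

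The sign of the median changed with single arrays and with the settings. It was 0.25 without Ca/Ca sarcoma 5, with 29 of 37 genes above 0, 0.29 without Ca/+ sarcoma 2 and -0.53 without Ca/+ sarcoma 1. With all 6 sarcomas it was 0.11 with array weights (26 of 37 above 0) and 0.0 with housekeeping centring. With the tumour number as a replicate block it was 0.28 (30 of 37 above 0). A number found in only 1 genotype adds nothing to that estimate, which rests on tumours 1 and 2 of each genotype. It thus takes nothing from Ca/Ca sarcoma 5. Still 0 genes passed in each of these fits.

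For the difference between genotypes in the change from muscle to sarcoma, 0 of 37 genes passed (limma), against 0.00807% of all genes. At an unadjusted p under 0.05 there were 4 (10.8%, against 7.22%), namely Fcgr2b (-2.24, SE 0.89, adjusted p = 0.672), Mrc1 (-1.31, SE 0.47, 0.639), Cd68 (-1.24, SE 0.46, 0.656) and Arg1 (-4.47, SE 1.59, 0.639). Negative values mean a smaller rise, or a larger fall, in Ca/Ca than in Ca/+ tissue, and 34 of the 37 were below 0, with a median of -1.53 against 0.01 over all genes. This contrast rests on the 2 single muscles, described next.

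The 2 muscles differed in these genes. The Ca/Ca muscle was at least 2-fold above the Ca/+ muscle for 24 of the 37 genes (64.9%, against 4.49% of all genes) and at least 2-fold below it for 0 (2.53% of all genes). It was above at all for 36 of 37 (97.3%, against 49.0%), Gpnmb being the exception at -0.63. The median difference was 1.27, against -0.01 over all genes. There is 1 array of each, so there is no replicate check and no test, and genotype and the individual sample cannot be told apart.

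**Figure D4:**
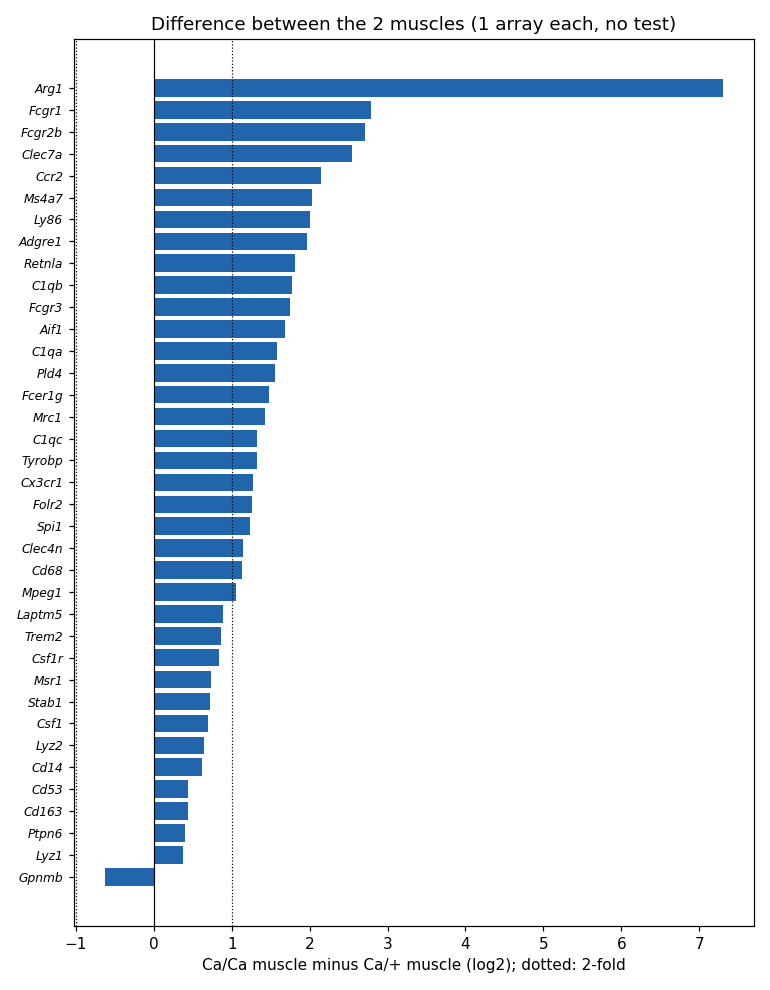
Ca/Ca muscle minus Ca/+ muscle for each of the 37 genes (bars, log2), 1 array each, with dotted lines at 2-fold. All genes but Gpnmb are above 0 and 24 reach 2-fold, from Mpeg1 at 1.05 to Arg1 at 7.30.

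The differences covered most roles. Arg1 differed by 7.30, a lower bound, and then came Fcgr1 (2.79), Fcgr2b (2.71), Clec7a (2.54), Ccr2 (2.14) and Ms4a7 (2.03). The C1q chains differed by 1.33 to 1.78, Adgre1 by 1.97, Tyrobp by 1.33 and Csf1r by 0.84. The smallest positive differences were those of Lyz1 (0.38), Ptpn6 (0.40), Cd163 (0.44) and Cd53 (0.44).

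Other lists give the setting of this difference. The mean of the other macrophage genes was 7.84 in the Ca/Ca and 7.21 in the Ca/+ muscle. Not all of them were higher in the Ca/Ca muscle, and Marco was at 4.24 there against 8.41. The transcription factors of macrophages had a lower mean in the Ca/Ca muscle (6.99 against 7.34). The mean of the muscle fibre genes was 13.12 in the Ca/Ca and 13.00 in the Ca/+ muscle, that of the pan-leukocyte genes 8.48 and 8.10, and that of the neutrophil genes 5.14 and 5.60. T and NK cell genes had means of 6.11 and 5.98, but single genes differed both ways, with Gzmb, a protease of cytotoxic cells, 2.88 higher and Cd5, a T cell surface protein, lower (-1.21) in the Ca/Ca muscle. B and plasma cell genes were at 6.40 and 7.48, with the B cell gene Ms4a1 at a difference of -2.93. Dendritic cell and MHC class II genes were at 7.95 and 7.46, and H2-Aa, H2-Ab1, H2-Eb1 and Cd74, which serve antigen presentation by macrophages too, were 1.25 to 1.71 higher in the Ca/Ca muscle. Phagocyte oxidase genes were at 7.89 and 6.59 and fibroblast genes at 10.63 and 9.77. Monocyte-attracting chemokines were at 8.48 and 7.0, with Ccl2, the main ligand of Ccr2, at 8.68 and 5.06. Fat cell genes were lower in the Ca/Ca muscle (8.91 against 10.80). Hmga2 and Crabp1, which were at 10.91 ± 0.54 and 11.97 ± 0.69 in sarcomas (SD, n = 6), were at 8.57 and 9.78 in Ca/Ca muscle and at 4.53 and 4.36 in Ca/+ muscle. So 2 genes that were high in every sarcoma were also higher in the Ca/Ca than in the Ca/+ muscle, though below every sarcoma. These 2 are in none of the lists, and how many genes share their pattern was not counted. The part of these genes and lists in the macrophage gene values of the Ca/Ca muscle was not tested.

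**Figure D5:**
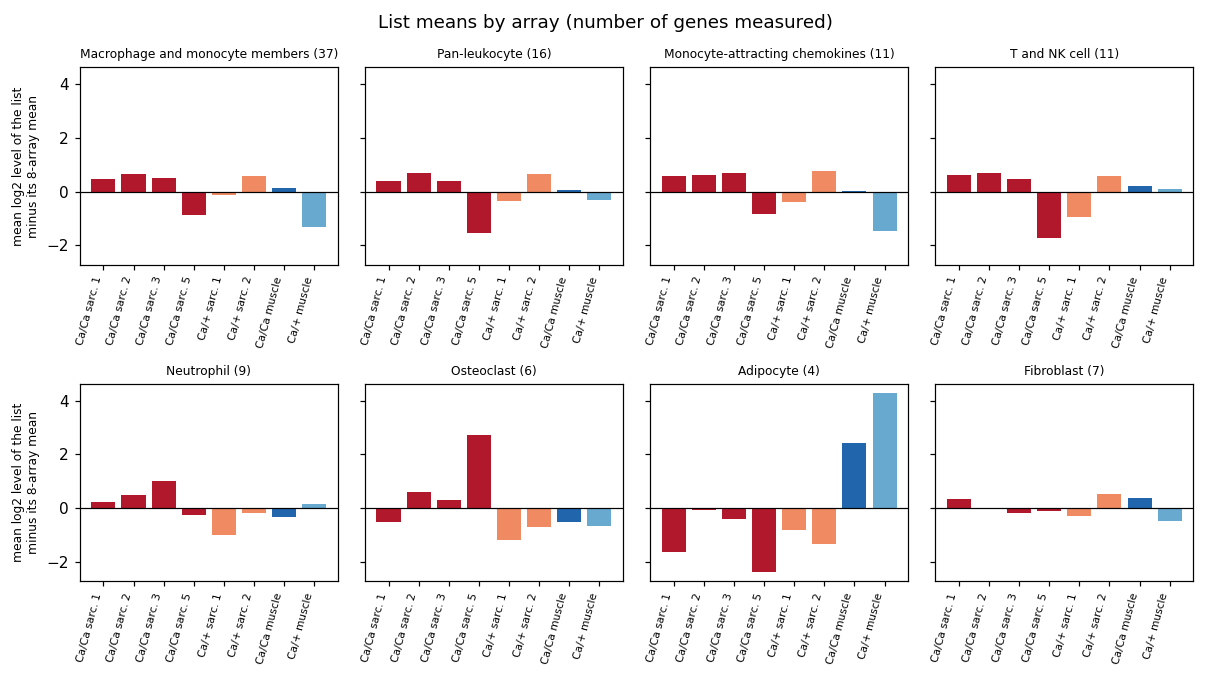
Mean log2 level of 8 gene lists on each array, minus the mean of that list over the 8 arrays, with the number of genes in brackets. The 37 macrophage and monocyte genes and the chemokines that attract monocytes are lowest in the Ca/+ muscle, pan-leukocyte and T and NK cell genes are lowest in Ca/Ca sarcoma 5, and osteoclast genes are highest there.

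Among the 6 sarcomas, Ca/Ca sarcoma 5 had the lowest level of 31 of the 37 genes (83.8%), against 20.5% of all genes, and was at least 2-fold below the mean of the other 5 for 27 (73.0%, against 6.1%). Its median difference from that mean was -1.38, against 0.02 over all genes. The furthest below were Ccr2 (-3.85), Ly86 (-3.13), Fcgr1 (-3.01), Clec7a (-2.95), Pld4 (-2.92) and Aif1 (-2.91). It was below both muscles for 16 genes (43.2%), a share near the 39.8% of all genes.

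Not all of the 37 were low there. Arg1 (2.38 above the mean of the other 5), Gpnmb (2.08) and Cd163 (1.41) were at least 2-fold higher (8.11%, against 4.1% of all genes), Cd14 was 0.82 higher, and these 4 genes had their highest sarcoma level in Ca/Ca sarcoma 5 (10.8%, against 23.4% of all genes). For Gpnmb, Ca/+ sarcoma 1 was nearly as high (8.69 against 8.98), and for Arg1 Ca/Ca sarcoma 1 was level with it (10.56 against 10.57).

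Markers of some other cells differed in the same tumour. The mean of 16 pan-leukocyte genes was 6.88 in Ca/Ca sarcoma 5 against 8.05 to 9.10 in the other sarcomas, that of 11 T and NK cell genes was 4.18 against 4.96 to 6.59, and that of 9 dendritic cell and MHC class II genes was 5.79 against 6.56 to 8.36. Osteoclasts are bone-resorbing cells of the same myeloid lineage, and the mean of their 6 measured genes was 8.98 against 5.09 to 6.86. All 6 were highest in Ca/Ca sarcoma 5, among them Acp5 (12.12), the acid phosphatase used to stain osteoclasts, Ctsk (11.98), the collagen-degrading cathepsin, and Mmp9 (11.65), a matrix protease, with Ocstamp, Oscar and Calcr at 6.87, 5.97 and 5.28. Genes of B and plasma cells had a lower mean too (5.28 against 5.75 to 8.21). So did mast cell (4.0 against 5.02 to 8.12) and fat cell genes (4.11 against 4.86 to 6.41). Lower as well were the lists of other macrophage genes, phagocyte oxidase, ITAM and CSF receptor signalling, monocyte-attracting chemokines and inflammatory genes. Satellite cell genes were higher (3.69 against 3.25 to 3.49). Some lists lay within the range of the other sarcomas. Neutrophil genes had a mean of 5.19 against 4.44 to 6.47, and endothelial genes 5.81 against 5.58 to 6.70. Fibroblast genes were at 10.14 against 9.96 to 10.78. The part of all these cells in the levels of the 37 genes was not tested.

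The other sarcomas were closer to each other. Over all 6 the median SD of the 37 genes was 0.72, against 0.24 over all genes. Over the 5 without Ca/Ca sarcoma 5 it was 0.47, against 0.23. That array was singled out by its low levels of these same genes, so a smaller SD without it follows from that choice. Ca/+ sarcoma 2 had the highest level of 16 of the 37 genes (43.2%, against 15.6% of all genes), among them Ccr2, Cx3cr1, Fcgr1, Trem2 and all C1q chains. Ca/+ sarcoma 1, of the same genotype, had the highest level of 0 (17.3% of all genes), and 13 of its 37 genes were above their mean over the 8 arrays, against 33 in Ca/+ sarcoma 2.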

How the data were processed

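The deposited table holds log2 values for each probe set, which the authors made with RMA per the submitters' processing notes, a method that subtracts background, equalises the distributions of the arrays and combines the probes of each set. No source used here gives its version or the batch of an array. Values made this way do not measure a change in the total RNA of a tissue. Of 22690 probe sets, 64 were controls, 20380 were listed with 1 gene symbol, 691 with several and 1555 with none, and only the first kind was used. Of the named ones, 20351 matched the RefSeq gene table of GRCm38.p6 by Entrez number. The probe set with the highest mean over the 8 arrays stood for each of 12393 genes, 4956 of which had more than 1. No 2 arrays shared more than 63 equal values, so none was a duplicate. There were 0 columns of other samples.

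Tests used limma 3.58.1 in R 4.3.3 (lmFit and eBayes), fitted over all genes with Benjamini-Hochberg adjustment and a threshold of 0.05. Sarcoma against muscle used all 8 arrays and the sarcoma genotypes the 6 sarcomas. The interaction used 4 groups, in which each lone muscle is assumed to vary like the sarcomas. The muscles and the spread among sarcomas were described without a test. Alternatives covered the probe set, the scaling, a filter on dim genes, array weights, the variance model, the genotype and leaving out each array. Values for all arrays are given for genes past the threshold, for the gene of each role with the largest difference from muscle or between muscles, and for Csf1, Csf1r, Spi1, Adgre1, Cd68, Mrc1, Arg1 and Retnla; further lists are represented by up to 4 called genes of smallest p in each direction. The 37 genes and all lists were chosen with earlier results of these data known. The number of arrays limits the precision. Figures used matplotlib 3.10.9 under Python 3.11.15. Promoter sequences are from RefSeq (GRCm38.p6).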

Additional observations from a re-analysis of the deposited data

Results flagged for a closer look

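The lowest and highest level of each gene was compared with the range of its group by Dixon's 95% critical value, which chance passes in about 1 group in 20. All values that passed were low levels in Ca/Ca sarcoma 5. Among the 4 Ca/Ca sarcomas these were 11 of the 37 genes, namely the monocyte receptor gene Ccr2 (4.41), Fcer1g (9.24), C1qa (10.53), Ly86 (7.06), Clec7a (5.09), Folr2 (7.28), Lyz1 (12.20), Lyz2 (11.37), Mpeg1 (8.10), Aif1 (6.59) and Ms4a7 (8.60). Among all 6 sarcomas they were 6 of the 37, namely Cx3cr1 (6.11), Folr2 (7.28), Lyz1 (12.20), Pld4 (5.79), Adgre1 (6.30) and Aif1 (6.59). The rule was not run over all genes, so these counts cannot be set against a background share. The 37 genes are not independent of each other, since most are made by the same cells.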

How the results depend on the processing

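The count of genes higher in sarcoma, 3 in the reported fit, was 1 with cyclic loess, 1 with housekeeping centring, 9 with array weights, 0 with Ca/Ca arrays only and 7 with Ca/+ arrays only, and 0 to 13 when 1 array was left out. The count lower, 1, was 0 with Ca/Ca arrays only, 2 with Ca/+ arrays only (Cd163 and Retnla) and 0 to 1 when 1 array was left out. Filters on dim genes, array median centring, repeated quantile normalization, the variance model and the genotype covariate kept both counts within 1.5 times. So did testing each probe set separately, an alternative chosen after seeing the data (4 higher, 1 lower). The share of all genes called is not given here for cyclic loess, housekeeping centring, array weights or fits of 1 genotype. Nor is it given for most fits that left out 1 array. The counts in those fits therefore stand here without a background share and are not read as a result. Housekeeping centring moved the median of all genes by -0.267 and cyclic loess by -0.079. Fits of 1 genotype rest on a lone muscle, and the cause of each change was not tested. Over single genes, 748 alternative values kept their sign and side of the threshold, 31 newly passed, 26 no longer passed and 29 changed sign. Among uncalled genes the sign of sarcoma minus muscle turned as follows. Without the Ca/+ muscle and with Ca/Ca arrays only, respectively, it was -0.87 and -0.86 for Ccr2, -0.27 and -0.11 for Fcgr2b, -0.12 and -0.19 for C1qb, -1.23 and -1.18 for Clec7a, -0.01 and -0.23 for Pld4, -0.55 and -0.73 for Adgre1, and -0.99 and -0.05 for Arg1; Ly86 was at -0.03 with Ca/Ca arrays only. Clec7a was also at -0.13 with cyclic loess, -0.23 with housekeeping centring, -0.10 with the genotype covariate, and -0.13, -0.09, -0.19 and -0.15 without Ca/Ca sarcomas 1, 2 and 3 and Ca/+ sarcoma 2. Ccr2 was at -0.07 with housekeeping centring, and at -0.07 and -0.08 without Ca/Ca sarcoma 3 and Ca/+ sarcoma 2. Without the Ca/Ca muscle the values were 1.27 for Ccr2, 2.44 for Fcgr2b, 1.67 for C1qb, 1.31 for Clec7a, 1.42 for Adgre1 and 6.30 for Arg1. Folr2 was at 0.34 without the Ca/Ca muscle, -0.93 without the Ca/+ muscle and 0.58 with Ca/+ arrays only, Lyz1 at -0.04 with cyclic loess and Ptpn6 at 0.11 as the mean of its probe sets.

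Tumour numbers 1 and 2 occur in both genotypes. With the number as a replicate block, 0 genes differed between sarcoma genotypes (limma), as without it, and the median difference was 0.28 in place of -0.13. A number found in only 1 genotype adds nothing to that difference, so it rests on tumours 1 and 2 of each genotype. Across 12393 genes, deviations from the genotype mean correlated at -0.19 for number 1 and 0.29 for number 2. The deviations of the 2 Ca/+ sarcomas mirror each other, so these are not independent checks, and the labels do not say that a number marks a shared litter, batch or day. In that comparison and in the interaction, the count stayed at 0 under all alternatives run. The muscle and tumour 5 counts (24 and 31) stayed within 1.5 times under the scaling, probe set and filter alternatives.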
